A study of Homo sapiens with 10 samples.

Results

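The transcripts of 9 genes that act in the antioxidant response, glutathione synthesis and iron storage were followed across 10 RNA sequencing libraries: HMOX1, FTH1, FTL, SLC7A11, GCLM, GCLC, TXNRD1, NQO1 and SRXN1. They were found by exact symbol among 25593 gene entries, and all 9 were present in every library. The libraries came from U2OS, a human osteosarcoma cell line, from which a control CRISPR line labelled p53 WT and a CRISPR line labelled p53 KO had been derived by clone selection. For 96 h each line was given either control siRNA or siRNA to SET, a protein that chaperones histones, inhibits protein phosphatase 2A and binds p53. There were 3 libraries of WT-labelled cells with control siRNA, 3 of WT-labelled cells with SET siRNA, 2 of KO-labelled cells with control siRNA and 2 of KO-labelled cells with SET siRNA.

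All groups share the U2OS background, a CRISPR construct and an siRNA. The design text names SET as the CRISPR target while describing a p53 knockout line, so the groups were taken from the sample titles. With 1 line for each label, p53 status cannot be told apart from any other difference between the clones. The labels name no culture, batch or day for the libraries, so p-values reflect only how far these libraries spread, which may be technical. No siRNA sequence was at hand.

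NRF2, the product of NFE2L2, is the transcription factor best known for switching on antioxidant genes. KEAP1 normally sends it for degradation, and oxidants or electrophiles block this, so that NRF2 pairs with small MAF proteins on antioxidant response elements, where BACH1 competes as a repressor. Its targets import cystine, make glutathione, recycle thioredoxin, break down haem and store the iron that is set free, and several of them guard cells against ferroptosis, a death driven by iron-dependent lipid peroxidation.

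Levels are FPKM, fragments scaled by transcript length and by library size, as the authors deposited them. Differences are log2 of (FPKM + 1) from limma fitted over all 14813 genes tested, and a gene was called when its Benjamini-Hochberg adjusted p over those genes was below 0.05. Implied depth was 14283625 to 21769841 fragments per library. SET itself went from 124 ± 2.64 FPKM (SD, n = 3) to 12.5 ± 0.656 (n = 3) in WT-labelled cells and from 164 ± 8.22 (n = 2) to 14.9 ± 0.0302 (n = 2) in KO-labelled cells. These FPKM are no test of the edit itself. CDKN1A, a p53 target that encodes the cell cycle inhibitor p21, was at 162 ± 8.42 FPKM in WT-labelled and 6.67 ± 0.231 in KO-labelled cells with control siRNA. The 2 KO-labelled control libraries differed by a median of 0.144 log2 units per gene, against 0.0596 to 0.0857 for the other pairs within a group. The fit gives each gene 1 spread shared by all 4 groups, so intervals and p-values that use this pair may be too small. Of 9 bone and mesenchymal markers, 5 reached 1 FPKM in every library, among them VIM, COL1A1 and RUNX2, and COL1A2, SP7, BGLAP and TWIST1 stayed below 1 in all. All 5 blood markers, 3 liver markers and 3 of 4 endothelial markers stayed below 1 FPKM, with CD34 at 0.368 to 1.43. Of 5 epithelial markers 2 reached 1 in every library (EPCAM at 1.58 to 4.75, CLDN4 at 5.09 to 11.5), 2 stayed below 1, and CDH1 was at 0.386 to 1.68.

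The 9 transcripts covered a wide range of levels per length. FTL, the ferritin light chain, ranked 9 among the tested genes by mean FPKM, FTH1, the ferritin heavy chain, ranked 32, and TXNRD1, cytosolic thioredoxin reductase, 311. SLC7A11, the cystine transporter, was at rank 3491 and GCLM, the modifier subunit of glutamate-cysteine ligase, at rank 4840. All 9 passed the filter on low values and had a clean status in all 10 libraries. The half-width of the authors' interval was 1.01% of FPKM for FTL at its narrowest and 7.36% for GCLM at its widest. The spread between libraries is a separate matter: the SD within a group reached 8.80% of the mean for FTL, 6.09% for GCLM and 12.1% for SLC7A11.

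**Figure D1:**
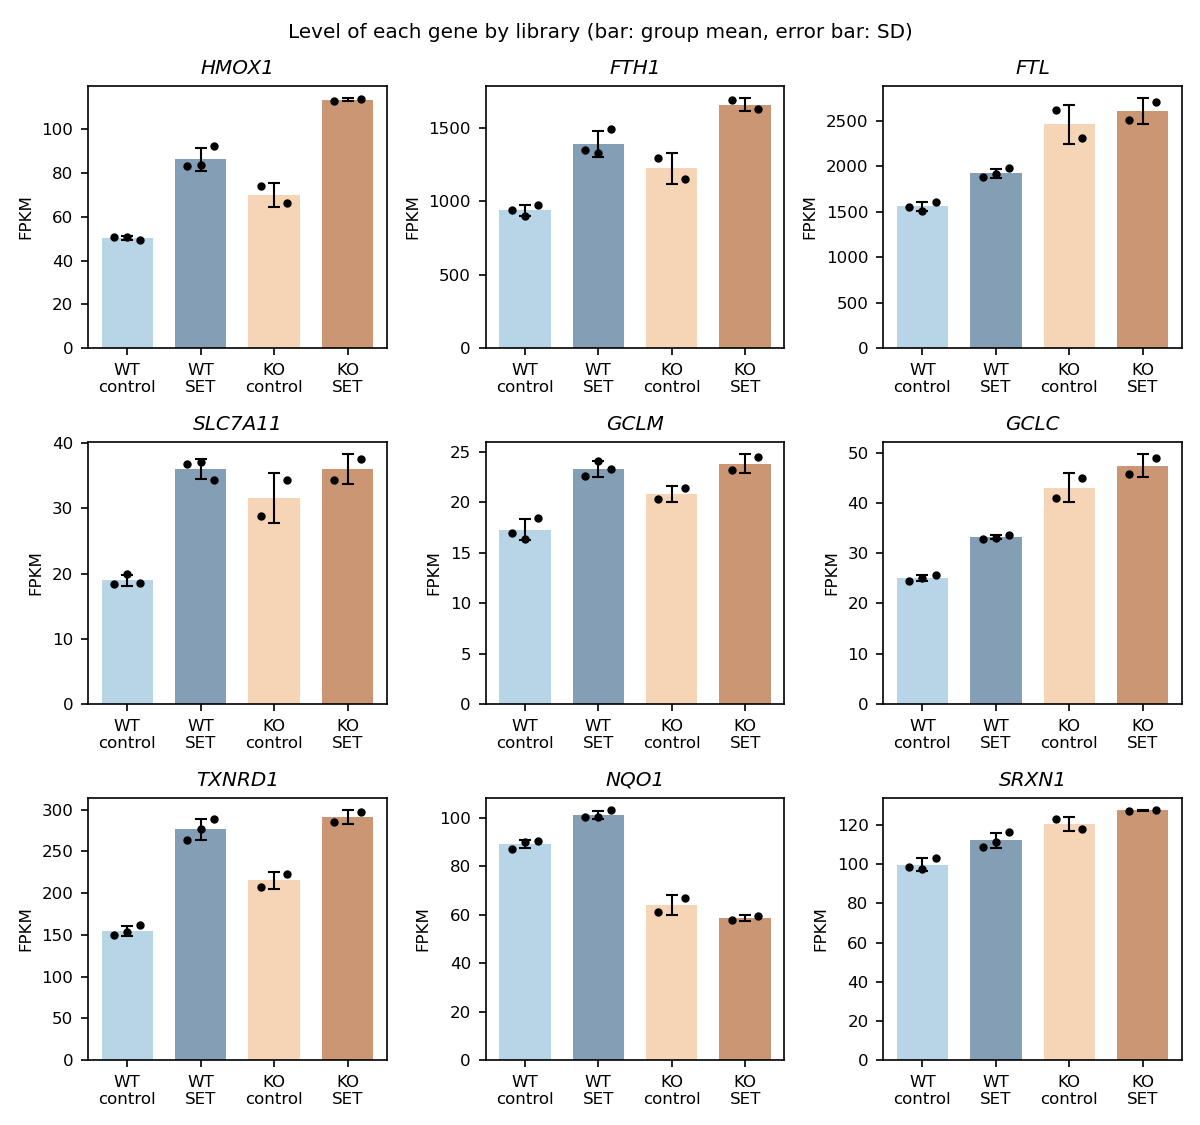
FPKM of each of the 9 genes (vertical axes, each from 0) in the 4 groups, with a point for each library, bars for group means and error bars for the SD (n = 3, 3, 2 and 2). All SET siRNA points of WT-labelled cells lie above the WT control points in every panel, and NQO1 is the panel where both KO-labelled groups lie below both WT-labelled groups.

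With SET siRNA in WT-labelled cells all 9 genes rose, by 1.12-fold (SRXN1) to 1.90-fold (SLC7A11) in FPKM. Over all tested genes 54.8% were called, 30.8% higher and 24% lower (4564 and 3553 genes, which became 3974 and 4075 with median-of-ratios scaling). The libraries of the 2 groups did not overlap for any of the 9 genes, where 35.7% of all genes were higher without overlap. In KO-labelled cells 3 of the 9 rose (HMOX1, TXNRD1 and FTH1) and 6 were not called, where 37.6% of all genes were called, 19.8% higher and 17.9% lower. In that line 7 of the 9 were higher and 1 (NQO1) lower without overlap of the libraries, beside 36% and 31.4% of all genes. The median difference of the 9 was 0.41 log2 units in WT-labelled and 0.18 in KO-labelled cells, beside 0.04 and 0.02 over all tested genes. The test of the difference between the 2 responses called 4 of the 9, SLC7A11, TXNRD1, NQO1 and GCLC, each with the higher response in WT-labelled cells, where 19.1% of all genes were called, 10.5% positive and 8.6% negative. The 2 siRNA comparisons share no library, and each shares its controls with the comparison of the lines.

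Cystine import and glutathione synthesis come first in the pathway. SLC7A11 is the light chain of the exchanger that brings in cystine, the source of cysteine for glutathione. The gene is listed on chromosome 4, 139085247 to 139163503, with no build named. Its FPKM was 18.4, 19.9 and 18.6 in WT-labelled control libraries and 36.8, 37.1 and 34.3 with SET siRNA. KO-labelled cells had 28.9 and 34.3 with control siRNA and 34.4 and 37.6 with SET siRNA. The WT-labelled control libraries thus stood alone at the bottom, and the other 3 groups lay close together. The rise in WT-labelled cells was 0.89 on the log2 scale (SE 0.069, adjusted p = 8.94e-06). In KO-labelled cells the difference was 0.19 (95% interval -0.0025 to 0.38, adjusted p = 0.109), and the 2 responses differed by 0.70 (adjusted p = 0.00369). The KO-labelled difference rested on the control pair: it became 0.31 (adjusted p = 0.0199) without the second control library and 0.068 (adjusted p = 0.519) without the first.

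GCLC is the catalytic and GCLM the modifier subunit of glutamate-cysteine ligase, the rate-limiting enzyme of glutathione synthesis. GCLC (chromosome 6, 53362138 to 53409927) was at 24.4, 25.0 and 25.7 FPKM in WT-labelled control libraries, 32.8, 33.1 and 33.7 with SET siRNA, 41.0 and 45.0 in KO-labelled control libraries and 45.7 and 49.0 with SET siRNA. None of these 4 groups overlapped, and both KO-labelled groups stood above both WT-labelled groups. The response was 0.39 (adjusted p = 0.000115) in WT-labelled and 0.14 (adjusted p = 0.0911) in KO-labelled cells. The latter became 0.20 (adjusted p = 0.0308) without the second KO-labelled control library and 0.070 (adjusted p = 0.358) without the first. Their difference of 0.26 was called (adjusted p = 0.0407), but 10 of 18 alternative analyses gave an adjusted p between 0.0562 and 0.161.

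GCLM (chromosome 1, 94352589 to 94375012) was at 17.0, 16.4 and 18.4 FPKM in WT-labelled control libraries and 22.6, 24.1 and 23.3 with SET siRNA. The KO-labelled libraries had 20.3 and 21.4 with control siRNA and 23.1 and 24.5 with SET siRNA. Both SET siRNA groups overlapped with each other, and both lay above their controls. GCLM rose by 0.41 in WT-labelled cells (adjusted p = 0.000177), while in KO-labelled cells the difference of 0.18 narrowly missed the threshold (adjusted p = 0.0502). That difference was called in 3 of 19 alternative analyses, among them the stricter filter on low values (adjusted p = 0.0432). In the other 16 it was not called, and it ranged from 0.15 to 0.22 over all of them. The ratio of GCLC to GCLM in FPKM was 1.45 ± 0.0668 in WT-labelled control libraries and 1.43 ± 0.045 with SET siRNA. It was 2.06 ± 0.0596 and 1.99 ± 0.0188 in KO-labelled cells, higher than in either WT-labelled group (no test was run on the ratio).

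RefSeq promoters (GRCh38.p14, 250 bases before the start) were held for 6 of the 9 genes, with 7 starts, and HMOX1, FTH1 and SLC7A11 were not among them. They were searched on both strands for TGACNNNGC, the core of the antioxidant response element, which is present in 3830 of 35116 RefSeq promoters of that length (10.9%). A match was found in GCLM and at both starts of TXNRD1, and none of the matches overlaps the AP-1 motif TGANTCA. GCLC, NQO1, FTL and SRXN1, which also rose in WT-labelled cells, had no match in this window, from which nothing is drawn. The promoters with a match are shown, with the match in capitals. A match is a description of the letters, and no binding was measured. In GCLM (chr1:93909431-93909680, minus strand) the match lies 34 to 26 bases upstream of the start and is read from the opposite strand.
GCLM: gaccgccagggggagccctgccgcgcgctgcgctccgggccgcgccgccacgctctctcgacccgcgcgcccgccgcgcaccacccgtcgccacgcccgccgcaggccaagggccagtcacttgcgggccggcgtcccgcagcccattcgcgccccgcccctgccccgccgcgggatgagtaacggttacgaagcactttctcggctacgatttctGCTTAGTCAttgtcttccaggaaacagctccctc
At the first TXNRD1 start (chr12:104215529-104215778, plus strand) the match lies 99 to 91 bases upstream, and at the other start (chr12:104286782-104287031, plus strand) 102 to 94 bases upstream, where it is read from the opposite strand.
TXNRD1, first start: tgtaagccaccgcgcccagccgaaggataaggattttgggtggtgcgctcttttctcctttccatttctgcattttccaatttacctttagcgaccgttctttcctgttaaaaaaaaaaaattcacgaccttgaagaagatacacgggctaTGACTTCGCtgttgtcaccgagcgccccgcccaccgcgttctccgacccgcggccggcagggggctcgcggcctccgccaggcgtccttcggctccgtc
TXNRD1, other start: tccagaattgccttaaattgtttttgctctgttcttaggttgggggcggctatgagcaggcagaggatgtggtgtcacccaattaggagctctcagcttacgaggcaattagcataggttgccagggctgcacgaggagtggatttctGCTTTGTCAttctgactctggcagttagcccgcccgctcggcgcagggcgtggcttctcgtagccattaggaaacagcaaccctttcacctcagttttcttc
The deposited values are per gene, so they do not say which TXNRD1 start was used.

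The thioredoxin arm is represented by TXNRD1, which reduces thioredoxin with NADPH, and SRXN1, sulfiredoxin, which repairs overoxidised peroxiredoxins. TXNRD1 (chromosome 12, 104609558 to 104744062) was at 149.98, 154 and 162 FPKM in WT-labelled control libraries and 264, 276 and 289 with SET siRNA. KO-labelled libraries gave 208 and 223 with control siRNA and 285 and 297 with SET siRNA. The groups with SET siRNA overlapped with each other and lay above both control groups. TXNRD1 rose in both lines, by 0.83 (SE 0.050, adjusted p = 2.18e-06) and by 0.43 (SE 0.061, adjusted p = 0.00068). The difference of 0.40 between these responses was called (adjusted p = 0.0105), and without the first KO-labelled SET siRNA library it was not (adjusted p = 0.0529).

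SRXN1 (chromosome 20, 627258 to 633890) moved least. It was at 98.8, 97.4 and 103 FPKM in WT-labelled control libraries and 109, 111 and 117 with SET siRNA, a rise of 0.17 (adjusted p = 0.00749). In KO-labelled cells it went from 123 and 118 to 127 in both libraries, a difference of 0.08 (95% interval -0.03 to 0.20, adjusted p = 0.232). Its 4 groups did not overlap, although neighbouring groups lay within a few FPKM of each other.

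NQO1, a quinone reductase and a standard readout of NRF2 activity, followed another order (chromosome 16, 69743303 to 69760533). Its FPKM was 87.4, 90.2 and 90.6 in WT-labelled control libraries and 100.5, 100.3 and 103 with SET siRNA. The KO-labelled line had 61.3 and 66.9 with control siRNA and 58.0 and 59.7 with SET siRNA. NQO1 was therefore the 1 member whose values with SET siRNA lay above the controls in one line and below them in the other. The rise in WT-labelled cells was 0.18 (adjusted p = 0.00524). The difference in KO-labelled cells was -0.12 (95% interval -0.23 to -0.01) and was not called (adjusted p = 0.0919). It was -0.18 and called without the first KO-labelled control library (adjusted p = 0.0169), and -0.058 without the second (adjusted p = 0.391). The responses differed by 0.30 (adjusted p = 0.0153), which was not called without the first KO-labelled SET siRNA library (adjusted p = 0.0714).

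Haem breakdown and iron storage are the last arm, in which HMOX1 and FTH1 rose in both lines. HMOX1, haem oxygenase 1, splits haem into biliverdin, carbon monoxide and iron (chromosome 22, 35777059 to 35790207). It was at 50.7, 50.7 and 49.4 FPKM in WT-labelled control libraries and 83.0, 83.5 and 92.3 with SET siRNA. In the KO-labelled line the values were 73.9 and 66.25 with control siRNA and 113 and 114 with SET siRNA. No groups overlapped, and SET siRNA libraries were highest within each line. HMOX1 rose by 0.77 (adjusted p = 5.26e-06) and by 0.69 (adjusted p = 8.47e-05), which are 1.72-fold and 1.62-fold. The responses differed by 0.08 (95% interval -0.12 to 0.27, adjusted p = 0.543).

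The ferritin shell is built from FTH1, which oxidises iron for storage, and FTL, which helps the iron core form. FTH1 (chromosome 11, 61731756 to 61735132) was at 937, 896 and 975 FPKM in WT-labelled control libraries and 1349.7, 1325 and 1491 with SET siRNA. KO-labelled values were 1294 and 1149 with control siRNA and 1685 and 1624 with SET siRNA. The highest control library of the KO-labelled line thus came just below the lowest SET siRNA library of the WT-labelled line. FTH1 rose by 0.57 (adjusted p = 8.64e-05) and by 0.44 (adjusted p = 0.00249), with a difference of 0.13 between the responses (95% interval -0.10 to 0.36, adjusted p = 0.392).

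FTL (chromosome 19, 49468565 to 49470136) was at 1555, 1507 and 1611 FPKM in WT-labelled control libraries and 1878, 1911 and 1979.6 with SET siRNA. The KO-labelled FPKM values were 2614 and 2308 with control siRNA and 2507 and 2704 with SET siRNA, and these 2 groups overlapped. FTL rose by 0.30 in WT-labelled cells (adjusted p = 0.00205). In KO-labelled cells the difference was 0.08 (95% interval -0.08 to 0.25, adjusted p = 0.39). The ratio of FTL to FTH1 in FPKM was 1.66 ± 0.016 and 1.39 ± 0.0574 in WT-labelled cells with control and SET siRNA, and 2.01 ± 0.00778 and 1.58 ± 0.126 in KO-labelled cells. The ratio was lower with SET siRNA in each line, and no test was run on it.

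Both ferritin transcripts carry an iron-responsive element near their 5′ end, a hairpin that iron regulatory proteins bind to block translation when iron is scarce. It is shown because it acts on the protein output and not on the mRNA level measured here. A search of the GENCODE release 29 transcripts of the 9 genes for the loop CAGTGN flanked by 5 paired bases found it in 2, FTH1 and FTL. The 30 bases lie at positions 59 to 88 of a 1229-base FTH1 transcript and 35 to 64 of an 878-base FTL transcript, with the loop in capitals. Without the pairing condition, CAGTGN occurs in the first 50 transcribed bases of 6.36% of the 35116 RefSeq starts, on the sense strand. The loops begin at base 71 (FTH1) and base 47 (FTL), so neither lies wholly within a window of that length. The share is therefore no background rate for these 2 sites.
FTH1: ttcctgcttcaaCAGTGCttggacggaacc
FTL: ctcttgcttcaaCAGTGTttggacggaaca

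Both ferritin genes have near-identical processed copies elsewhere in the genome, and how the authors' counting divided reads among them is not given, so their levels are uncertain. The copy FTH1P3 was at 29.6 ± 1.15 and 45.4 ± 1.44 FPKM in WT-labelled and 43.6 ± 5.46 and 56.1 ± 1.3 in KO-labelled cells, the same order of group means as FTH1. Its KO-labelled control libraries (39.8 and 47.5) overlapped with the WT-labelled SET siRNA libraries (45.7, 43.9 and 46.7). For FTH1 these groups did not overlap. FTLP10 was listed at 0 in all libraries. Entries that overlap the loci were low: BEST1 at FTH1 with 0.1498 to 1.52 FPKM, LOC641364 at SLC7A11 with 0.209 to 1.17, and EID3 at TXNRD1 with 0.657 to 1.73.

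**Figure D2:**
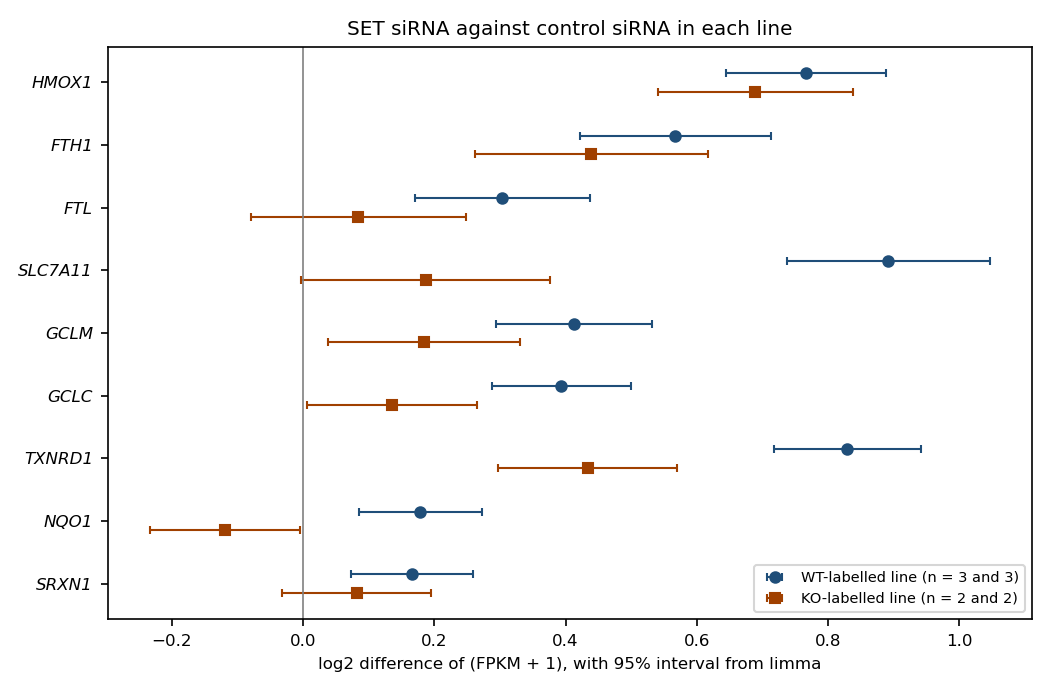
Difference between SET siRNA and control siRNA for each gene, in log2 of (FPKM + 1) on the horizontal axis, in WT-labelled cells (circles, n = 3 and 3) and KO-labelled cells (squares, n = 2 and 2), with 95% intervals from limma. HMOX1 and FTH1 have overlapping intervals in the 2 lines, SLC7A11, TXNRD1 and GCLC have intervals that are apart, and NQO1 lies on either side of zero.

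The comparison of the lines under control siRNA addressed how the genes stood in cells not given SET siRNA, at the same 96 h. In KO-labelled cells 8 of the 9 were higher and NQO1 was lower, where 47.9% of all tested genes were called, 25.7% higher and 22.2% lower. GCLC stood highest with 1.72-fold the WT-labelled level (log2 0.76, adjusted p = 7.97e-06), followed by SLC7A11 with 1.66-fold (0.70, adjusted p = 0.000113) and FTL with 1.58-fold (0.66, adjusted p = 6.83e-05). HMOX1 and TXNRD1 were both at 1.39-fold and FTH1 at 1.31-fold. GCLM and SRXN1 were at 1.21-fold, and NQO1 was at 0.717 of the WT-labelled level (log2 -0.48, adjusted p = 5.72e-05). The median of the 9 was 0.47, beside 0.02 over all tested genes.

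Under SET siRNA 5 of the 9 were higher in KO-labelled cells, 1 was lower and 3 were not called, where 48.4% of all genes were called, 23.6% higher and 24.8% lower. GCLC (0.50, adjusted p = 5.97e-05), FTL (0.44, adjusted p = 0.000549) and HMOX1 (0.39, adjusted p = 0.000599) led those that were higher. FTH1 (0.25, adjusted p = 0.0163) and SRXN1 (0.18, adjusted p = 0.00911) were called too. SLC7A11 was at 0.998 of the WT-labelled level (95% interval -0.18 to 0.17 on the log2 scale), GCLM at 1.02-fold (-0.10 to 0.16) and TXNRD1 at 1.05-fold (-0.05 to 0.20). The 3 genes with the weakest separation of the lines here were thus SLC7A11, GCLM and TXNRD1. NQO1 was at 0.581 of the WT-labelled level (log2 -0.77, adjusted p = 1.95e-06). The FTH1 call was lost without the second WT-labelled SET siRNA library (adjusted p = 0.054) or without either KO-labelled SET siRNA library (0.101 and 0.0519). SRXN1 was lost without either KO-labelled SET siRNA library (0.0531 and 0.054).

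**Figure D3:**
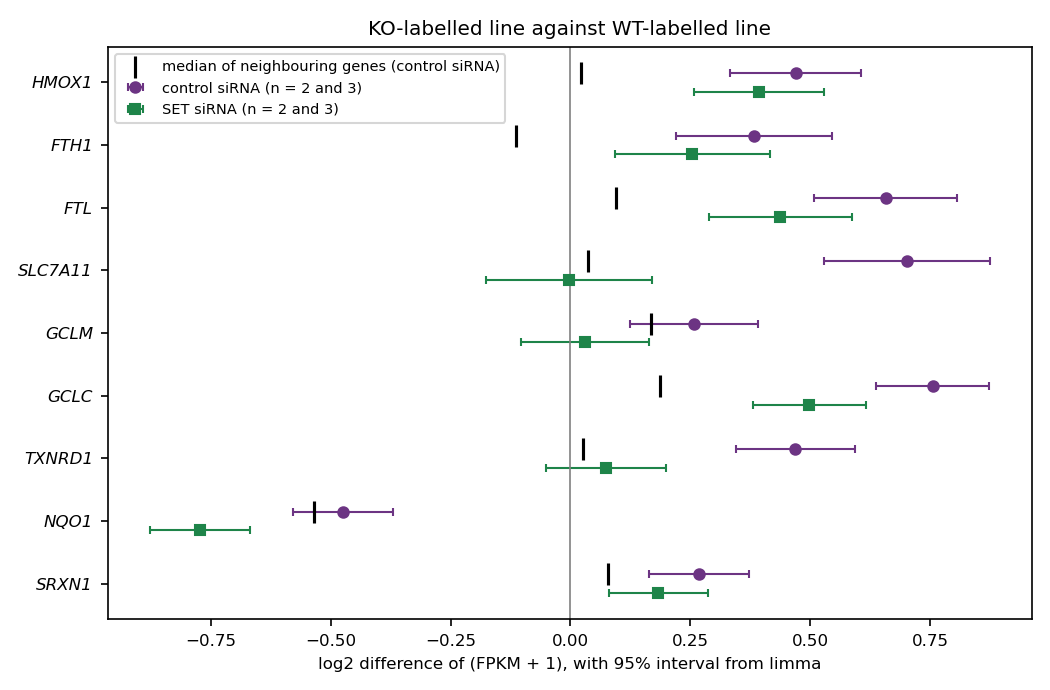
Difference between KO-labelled and WT-labelled cells for each gene, in log2 of (FPKM + 1) on the horizontal axis, with control siRNA (circles) or SET siRNA (squares, n = 2 and 3 for both) and 95% intervals from limma. Black ticks give the median of the neighbouring genes with control siRNA, which for NQO1 is -0.54, next to its own -0.48.

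Neighbouring genes on the chromosome bear on the line comparison. For each member up to 15 of the nearest genes on each side with a mean of at least 5 FPKM were read. This gave 23 neighbours for SRXN1 and 30 for every other member. The 30 neighbours of NQO1, between 68279246 and 71496117 on chromosome 16, had a median of -0.54 under control siRNA, with 27 called lower and 0 higher. The gene itself was at -0.48, within the range of its neighbours. Under SET siRNA their median was -0.43, with 28 called lower and 1 higher, and NQO1 was at -0.77. The same neighbours had medians of -0.02 and 0.06 in the siRNA comparisons. Neither the copy number of this stretch nor its part in the NQO1 level was tested. For the other 8 genes the neighbours' medians under control siRNA lay between -0.11 (FTH1) and 0.19 (GCLC). They were 0.17 for GCLM beside its own 0.26, and 0.08 for SRXN1 beside its own 0.27. Under SET siRNA the medians were 0.26 for FTL beside its own 0.44, and 0.17 for SRXN1 beside its own 0.18. Of the 23 SRXN1 neighbours, 13 were called higher and 1 lower under SET siRNA. Of 30 neighbours each, FTL had 18 higher and 2 lower, and HMOX1 13 and 3. For FTH1, SLC7A11, GCLM, GCLC and TXNRD1, 7 to 10 were higher and 4 to 10 lower. Over all tested genes 23.6% were higher and 24.8% lower. The part of the neighbourhood in these levels was not tested either.

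**Figure D4:**
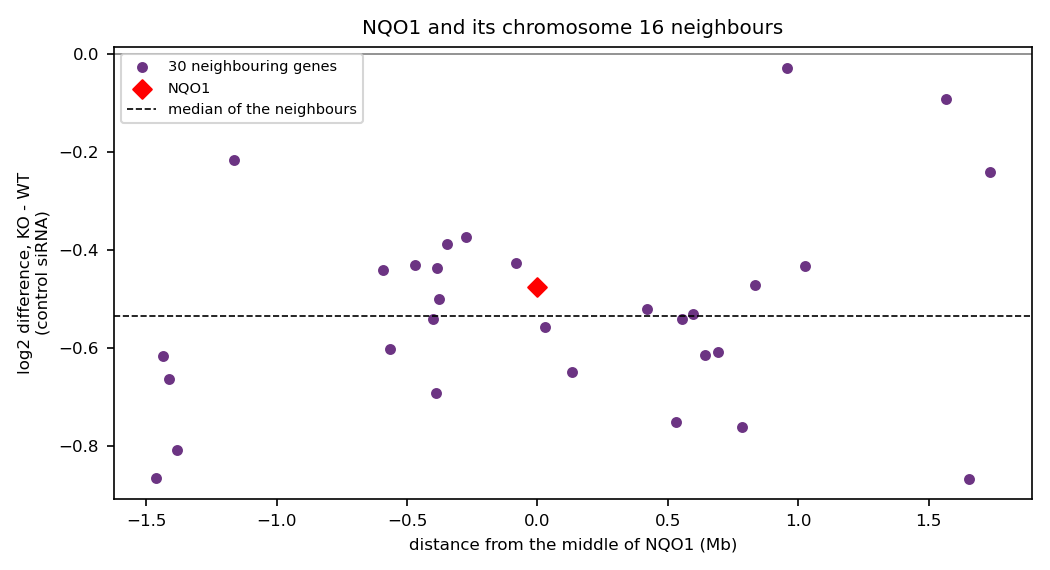
Difference between KO-labelled and WT-labelled cells with control siRNA, in log2 of (FPKM + 1) on the vertical axis, for NQO1 (diamond) and 30 neighbouring genes (points) by distance from the middle of NQO1 in Mb. All points lie below zero, and the dashed line is the neighbours' median of -0.54.

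The upstream regulators were read next. NFE2L2 mRNA was at 38.3 ± 1.71 and 43.4 ± 1.63 FPKM in WT-labelled cells (log2 0.17, adjusted p = 0.0181) and 46.4 ± 3.4 and 45.3 ± 0.212 in KO-labelled cells (-0.03, adjusted p = 0.72). KEAP1, which directs NRF2 to degradation, fell by 0.27 in WT-labelled cells (33.0 ± 1.5 to 27.1 ± 2.06 FPKM, adjusted p = 0.0261). In KO-labelled cells KEAP1 was at 30.1 ± 4.19 and 34.5 ± 3.93 (0.19, adjusted p = 0.189). The calls of NFE2L2 and KEAP1 in WT-labelled cells were each lost in 4 alternative analyses, with adjusted p up to 0.07 and 0.0856.

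Among the partners of NRF2, MAFF changed most, from 10.3 ± 0.627 to 25.0 ± 1.2 FPKM in WT-labelled and from 8.07 ± 0.458 to 19.5 ± 1.45 in KO-labelled cells. MAFF rose by 1.20 (adjusted p = 1.09e-06) and 1.17 (adjusted p = 1.23e-05), and MAFG rose by 0.51 and 0.40 (adjusted p = 9.86e-05 and 0.00269). MAFK rose in KO-labelled cells (0.41, adjusted p = 0.0133) and was at 0.13 in WT-labelled cells (adjusted p = 0.221), and the KO-labelled call was lost in 4 alternatives. BACH1, the competing repressor, rose by 0.15 in WT-labelled cells (adjusted p = 0.0424, lost in 12 alternatives with up to 0.122) and was at -0.01 in KO-labelled cells. BACH2, a related repressor, rose from 1.24 ± 0.0242 to 4.09 ± 0.271 FPKM and from 1.54 ± 0.0341 to 3.46 ± 0.0105. Of 15 regulators tested, 8 were higher and 1 lower in WT-labelled cells, and 6 higher and 1 lower in KO-labelled cells, with list medians of 0.15 and 0.18 beside 0.04 and 0.02 over all tested genes. The shares over all tested genes, against which this list and those that follow are to be read, were 30.8% higher and 24% lower in WT-labelled cells and 19.8% and 17.9% in KO-labelled cells. The 7 regulator calls in KO-labelled cells became 4 without the second control library, without the first SET siRNA library, or with only the libraries compared.

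The remaining genes of the pathway were read from 7 further lists. Of 13 genes of cystine supply and glutathione turnover, 6 were higher and 3 lower in WT-labelled cells, and 3 were higher and 0 lower in KO-labelled cells (medians 0.10 and 0.11). With the replicate block 5 were called in KO-labelled cells. CHAC1, which degrades glutathione, rose from 8.55 ± 0.324 to 27.9 ± 1.34 FPKM in WT-labelled cells and from 12.6 ± 1.93 to 23.0 ± 0.0112 in KO-labelled cells. CTH, which makes cysteine from cystathionine, rose by 1.12 in WT-labelled cells (5.04 ± 0.108 to 12.1 ± 0.269) and was at 0.16 in KO-labelled cells (adjusted p = 0.106), a difference between responses of 0.96 (adjusted p = 0.000353). SLC3A2, the heavy chain that pairs with SLC7A11, rose in both lines, by 0.44 and 0.64.

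Of 24 glutathione peroxidases, transferases and glutaredoxins, 8 were higher and 6 lower in WT-labelled cells, and 9 and 5 in KO-labelled cells (medians 0.10 and 0.07). GPX3, a secreted peroxidase, rose by 0.91 and 0.68, while the reticulum-resident GPX8 fell (-0.72 and -0.55). Of 19 thioredoxin, peroxiredoxin and superoxide genes, 4 were higher and 6 lower in WT-labelled cells, and 4 and 3 in KO-labelled cells (medians 0.05 and 0.02). The 7 calls in KO-labelled cells became 4 without the second control library, 3 and 4 without the first or second SET siRNA library, 4 with array weights and 2 with only the libraries compared. TXNIP, which inhibits thioredoxin, rose by 0.99 and 0.31, and the mitochondrial dismutase SOD2 fell (-0.51 and -0.44). The TXNIP call in KO-labelled cells was lost with only the libraries compared (adjusted p = 0.0579).

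NADPH supplies the electrons for both glutathione and thioredoxin recycling. Of 12 genes that produce it, 2 were higher and 6 lower in WT-labelled cells, and 2 and 3 in KO-labelled cells, with list medians of -0.13 and -0.08. The 5 calls in KO-labelled cells became 8 with median-of-ratios scaling or the replicate block and 3 with only the libraries compared. IDH1, a cytosolic dehydrogenase, fell (-0.40 and -0.51), and the mitochondrial folate enzyme MTHFD2 rose by 0.79 and 0.47.

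Of 20 other genes listed as NRF2 targets, 6 were higher and 8 lower in WT-labelled cells, and 4 and 6 in KO-labelled cells (medians -0.06 and 0.01). The 10 calls in KO-labelled cells became 6 without the second SET siRNA library or with only the libraries compared. OSGIN1, an oxidative stress response gene, rose by 1.06 and 0.96. AKR1C1 and AKR1C2, aldo-keto reductases, fell in WT-labelled cells (-0.73 and -0.61) and in KO-labelled cells (-1.64 and -1.55). AKR1C1 went from 10.3 ± 1.09 to 5.83 ± 0.866 FPKM and from 18.3 ± 0.477 to 5.23 ± 1.12. These 2 genes are near-identical copies, and their separate levels are uncertain.

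Of 25 genes of iron and haem handling, 7 were higher and 8 lower in each line (medians -0.05 and -0.02). ALAS1, the first enzyme of haem synthesis, rose by 0.47 and 0.52, and STEAP3, an endosomal ferrireductase, fell (-0.54 and -0.40). SLC40A1, the iron exporter ferroportin, fell by 0.71 in KO-labelled cells (12.8 ± 1.21 to 7.39 ± 0.11 FPKM) and was at -0.16 in WT-labelled cells (adjusted p = 0.157). TFRC, the transferrin receptor for iron uptake, was named after its values were seen. It fell by 0.23 in WT-labelled cells (82.3 ± 2.51 to 70.0 ± 1.9 FPKM, adjusted p = 0.00234) and was at 0.01 in KO-labelled cells (adjusted p = 0.909).

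Of 14 genes of ferroptosis and lipid peroxidation, 3 were higher and 3 lower in each line (medians 0.03 and 0.05). The 6 calls in KO-labelled cells became 3 without the first SET siRNA library and 2 with only the libraries compared. AIFM2, a reductase that limits lipid peroxidation, rose by 0.53 and 0.55, and GCH1, which starts tetrahydrobiopterin synthesis, rose by 0.41 and 0.63. GPX4, the peroxidase that reduces lipid peroxides with glutathione, was named after its values were seen and rose by 0.36 (adjusted p = 0.000617) and 0.27 (adjusted p = 0.0152, lost in 4 alternatives with up to 0.0869). Over all 8 lists 142 genes were tested, of which 44 were higher and 41 lower in WT-labelled cells and 38 and 29 in KO-labelled cells. The share called was 59.9% and 47.2%, beside 54.8% and 37.6% of all tested genes.

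**Figure D5:**
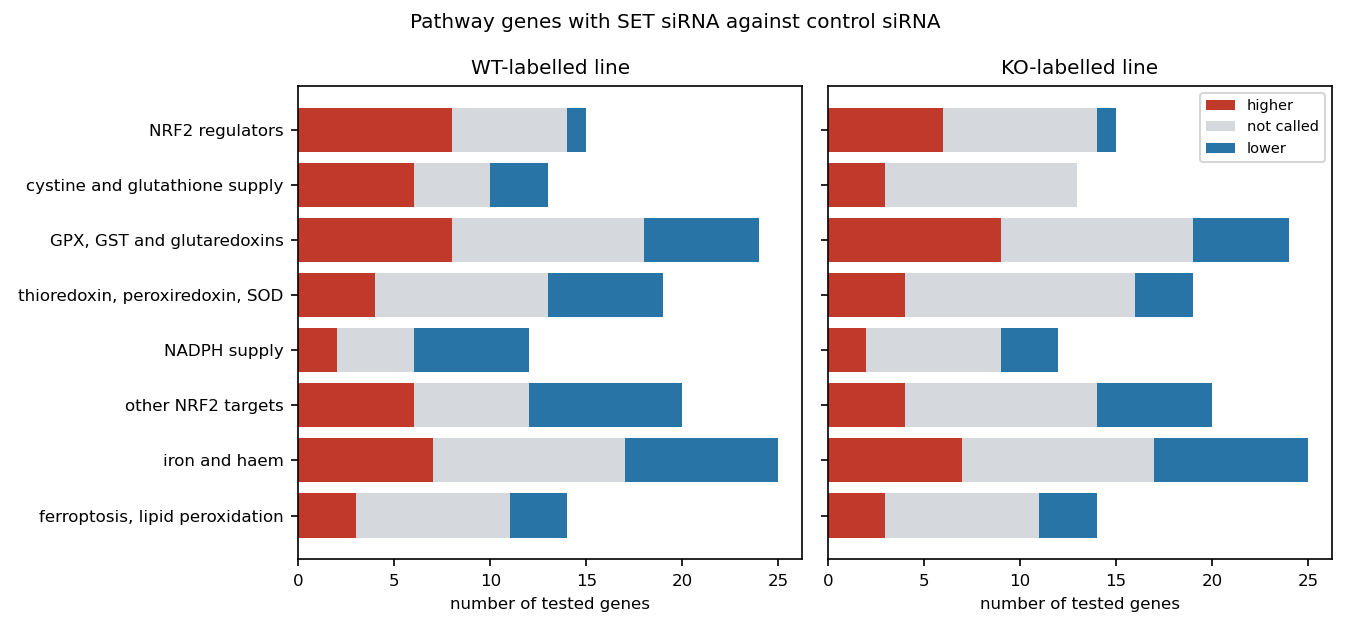
Number of tested genes (horizontal axis) in each of 8 pathway lists that were higher, not called or lower with SET siRNA, in WT-labelled cells on the left and KO-labelled cells on the right. Regulators have 8 higher and 1 lower, then 6 and 1, and NADPH supply in WT-labelled cells has 2 higher and 6 lower, beside 30.8% higher and 24% lower over all tested genes in WT-labelled cells and 19.8% and 17.9% in KO-labelled cells.

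Likeness between transcripts was measured as the root-mean-square difference in log2 units over the 10 libraries, after each gene was centred on its WT-labelled control mean. Among the 9 genes the closest pairs were FTL with GCLC (0.12), SLC7A11 with TXNRD1 (0.13) and HMOX1 with TXNRD1 (0.14), and the farthest was NQO1 with HMOX1 (0.95). GCLM and SRXN1 moved too little to be matched. Over all tested genes, LY6K (0.059) and UPP1 (0.071) were closest to HMOX1, APOBEC3B (0.066) to FTH1, FOXO3B (0.068) to FTL, and JHDM1D (0.064) and ALDH1L2 (0.090) to SLC7A11. C16orf87 (0.051) was closest to GCLC, CPEB1 (0.065) to TXNRD1, and ZFP36L1 (0.049) and CD59 (0.055) to NQO1.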

How the data were processed

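Total RNA of 10 libraries was sequenced, and the submitters' processing notes list Cufflinks 2.0.2, TopHat2 2.0.4 and bcl2fastq 1.8.4. The values are FPKM per gene with an interval and a status, computed by the authors per the file headers. The genome build is not given in the sources used here, nor is the annotation. Depth is estimated from the authors' intervals. FPKM is scaled to library size, so differences are relative, and summed FPKM was 503459 to 529940 per library.

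A filter of FPKM 1 or more in 2 or more libraries left 14813 entries to test and 10780 untested. limma 3.58.1 in R 4.3.3 fitted log2(FPKM + 1) with a mean trend over 4 groups and 5 contrasts, with Benjamini-Hochberg adjustment over all tested genes. This scale compresses the change of weakly expressed genes. The script was tested on simulated data. Python 3.11.15 with numpy 2.4.6, pandas 2.3.3 and matplotlib 3.10.9 did the rest. Alternatives were a pseudocount of 0.1, no filter or FPKM 5, median-of-ratios or quantile scaling, a replicate block, array weights, no trend, a fit restricted to the libraries compared and leaving out each library.

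The 9 genes and 8 lists were chosen with earlier results of these data known. Named genes are the 9, SET, 6 regulators, up to 4 called genes with the largest change per list and siRNA comparison (2 used here, with several of these unprinted), copies or overlapping entries, and the 3 most alike genes per member. CDKN1A was added as a check of the line labels. Some results that this rule selects are left out of the text.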

Additional observations from a re-analysis of the deposited data

Results flagged for a closer look

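For 4 of the 9 genes, limma's interaction test separated the siRNA responses of the 2 lines. The response in WT-labelled cells minus that in KO-labelled cells was 0.70 log2 units for SLC7A11, 0.40 for TXNRD1, 0.30 for NQO1 and 0.26 for GCLC. Only the SLC7A11 call was kept in all 18 alternative analyses (0.58 to 0.82, adjusted p = 0.00151 to 0.0231).

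Among the named pathway genes the same difference was 0.96 for CTH, 0.94 for AKR1C2, 0.91 for AKR1C1, 0.77 for CHAC1 and 0.74 for ALOX5, a lipoxygenase that was called higher in WT-labelled cells (0.47) and lower in KO-labelled cells (-0.27, adjusted p = 0.0283). The latter call was lost in 7 alternatives, with adjusted p up to 0.113. The difference between responses was 0.68 for TXNIP, 0.56 for SLC40A1 (lost in 3 alternatives, up to 0.083), 0.37 for BACH2 (lost in 8, up to 0.0939) and 0.32 for MTHFD2 (lost in 1, 0.0539). It was -0.47 for KEAP1 (adjusted p = 0.0464, lost in 10 alternatives with up to 0.174) and -0.24 for TFRC (adjusted p = 0.0478, lost in 12 alternatives). For AKR1C1 and AKR1C2 the positive sign means a smaller fall in WT-labelled cells.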

How the results depend on the processing

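Of 846 values of the 9 genes under the alternatives, 813 kept their direction and side of the threshold, 17 lost a call, 9 gained one and 7 changed sign. In WT-labelled cells all 9 genes stayed called when any library was left out (9 to 9), as in the line comparison under control siRNA (9 to 9). Leaving out 1 library gave 3 to 5 genes called for SET siRNA in KO-labelled cells, 1 to 5 for the interaction (1 without the first KO-labelled SET siRNA library) and 4 to 6 for the lines under SET siRNA. Over all genes these counts were 6989 to 8680 in WT-labelled cells, 3463 to 5832 in KO-labelled cells, 1143 to 4589 for the interaction, 4800 to 7554 for the lines under control siRNA and 5175 to 7699 under SET siRNA. Fitting only the libraries compared gave 3202 genes in KO-labelled cells in place of 5571, and 42 of the list genes in place of 67. With array weights the counts of the 9 genes did not change. Over all genes array weights gave 4320 in KO-labelled cells and 8962 in WT-labelled cells, the latter in place of 8117. Between the lines they gave 5184 in place of 7101 under control siRNA and 8388 in place of 7173 under SET siRNA. The causes were not tested.

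Nothing in the labels says that replicate numbers pair the samples. Deviations of same-numbered control and SET siRNA libraries correlated at -0.0833, -0.0261 and 0.0728 in WT-labelled cells and 0.00325 in KO-labelled cells. Across the lines they correlated at 0.217 and 0.228 for control siRNA and 0.0436 and 0.0674 for SET siRNA, over 2 pairs each. In a group of 2 libraries the deviations from the group mean mirror each other, so the 2 values of each siRNA are not independent. With the replicate block 5 of the 9 genes were called in KO-labelled cells in place of 3, adding SLC7A11 (adjusted p = 0.0405) and GCLM (0.0417), and 6027 genes in all. Between the lines under SET siRNA it added TXNRD1 (adjusted p = 0.0452).

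Differences near zero changed sign. With median-of-ratios scaling SLC7A11 between lines under SET siRNA became 0.00307, and TFRC in KO-labelled cells -0.0113 (-0.0186 with quantile scaling). The others changed sign when 1 library was left out, and their ranges over all libraries left out were, in KO-labelled cells, -0.00562 to 0.174 for FTL, -0.105 to 0.0411 for NFE2L2, -0.114 to 0.0977 for BACH1 and -0.0598 to 0.0793 for TFRC. They were -0.00111 to 0.155 for the HMOX1 interaction and, between lines under SET siRNA, -0.0648 to 0.0596 for SLC7A11 and -0.00859 to 0.0676 for GCLM.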
